A study of Mus musculus with 12 samples.

Results

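The cytosolic ribosomal protein genes were taken by symbol, as entries that begin with Rpl or Rps followed by a digit, without a hyphen and without the Rps6k kinases. Of 97 matching symbols, 10 Rps6k kinases and 5 hyphenated entries were left out, which kept 82 of 23472 gene entries as members. The members comprised 43 large subunit genes, 30 small subunit genes, 8 second copies of ribosomal protein genes and Rps19bp1, which encodes a binding partner of Rps19 and no ribosomal protein. The 73 large and small subunit genes are called the core members. A symbol rule does not reach every ribosomal protein, and 7 others, with Rplp0 and Rpsa among them, were followed as a separate list.

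RNA was measured in 12 libraries from livers of male C57BL/6 mice, with 3 libraries in each of 4 groups. Q-SEC and F-SEC are liver sinusoidal endothelial cells (LSECs), the fenestrated endothelium of the liver capillaries, taken from the lower interface of a density gradient and then bound to magnetic beads. Q-HSC and F-HSC are hepatic stellate cells (HSCs), the vitamin A-storing cells beside the sinusoids, taken from the upper interface without a bead step. F mice received CCl4, a hepatotoxin that produces fibrosis, at 0.6 µl/g as a 15% solution in olive oil, injected intraperitoneally 2 times a week for 6 weeks from an age of 6 to 8 weeks, while Q mice received olive oil, and all were 12 to 14 weeks old at collection. Separate mice per library are not stated in the labels. Each p-value therefore rests on differences among libraries of a group, which could be technical.

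A cytosolic ribosome has a small subunit that decodes the messenger RNA and a large subunit that joins the amino acids, and each holds a near fixed set of proteins on a core of ribosomal RNA. Ribosomal protein messengers are among the most abundant in any cell, and their translation is controlled through a terminal oligopyrimidine motif, a C followed by a run of pyrimidines at the 5′ end of the transcript, under the growth regulator mTOR. Some of the proteins also act outside the ribosome, as Rpl5 and Rpl11 do when they bind the p53 regulator Mdm2.

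The start of transcription is shown for the members that the results turn on and for 3 members with a long pyrimidine run. RefSeq promoters of mouse build GRCm38.p6 were found for 62 of the 82 members, and each line gives 15 bases before and 15 bases from the annotated start, 5′ to 3′ on the strand of the gene, with the longest run that begins with C and holds only C and T in capitals.
Rpl10a, chr17:28328456-28328485, plus strand: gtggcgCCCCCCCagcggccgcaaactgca
Rpl39, chrX:37085208-37085237, minus strand: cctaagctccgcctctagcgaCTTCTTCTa
Rpl41, chr10:128549154-128549183, minus strand: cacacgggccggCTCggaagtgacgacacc
Rpl12, chr2:32961697-32961726, plus strand: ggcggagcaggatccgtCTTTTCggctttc
Rps7, chr12:28635939-28635968, minus strand: gCTTCCggtttccacccacctacttccgct
Rps2, chr17:24720048-24720077, plus strand: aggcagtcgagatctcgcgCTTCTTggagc
Rps26, chr10:128626492-128626521, minus strand: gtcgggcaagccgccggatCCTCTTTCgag
Rps27l, chr9:66946071-66946100, plus strand: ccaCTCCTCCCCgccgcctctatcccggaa
Rpl35, chr2:39005117-39005146, minus strand: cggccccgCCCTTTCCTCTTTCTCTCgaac
Rpl27a, chr7:109519180-109519209, plus strand: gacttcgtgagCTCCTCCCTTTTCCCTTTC
Rpl15, chr14:18270972-18271001, minus strand: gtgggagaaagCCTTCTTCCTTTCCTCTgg

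A run of at least 8 bases lay in this window in 25 of the 62 members, or 40.3%, against 10.8% of all 27025 genes with a RefSeq promoter. The window spans both sides of the annotated start, so a run in it need not be a motif at the 5′ end of the transcript. Runs differed among the members, from 2 bases to the 19 bases of Rpl27a, with 3 in Rpl41. Within 250 bases before and 50 bases after the start, the ETS letters CCGGAAG, read on both strands, were present in 38.7% of the members and in 9.93% of all genes, and TATAAA in 1.61% and 3.15%. These are matches of letters and do not show that a factor binds. The core members are short, with a median annotated length of 703 bases and 58 of 73 under 1000 bases, they lie on 19 chromosomes, and 20 members hold a small nucleolar RNA gene within their span.

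Gene counts per library ranged from 8714228 to 13068564, and a count of 3, the limit that a count of 0 allows, corresponded to 0.229 to 0.335 CPM, the count scaled to a common library size, and covers counting error only. The identity of the preparations was checked with marker lists. Summed sinusoidal endothelial markers were 25290 to 29536 CPM in Q-SEC, 8930 to 12605 in F-SEC, 8609 to 11454 in Q-HSC and 2317 to 4605 in F-HSC, and no marker was at 0 in every library of any group. Summed stellate markers were 134 to 1926 CPM in Q-SEC, 3327 to 6657 in F-SEC, 553 to 2687 in Q-HSC and 1809 to 2665 in F-HSC, so they were not highest in the HSC libraries, and macrophage markers reached 7862 to 22148 CPM in Q-HSC and 5394 to 12830 in F-HSC. The F-SEC libraries also overlapped Q-HSC in endothelial markers and had the highest stellate markers. LSEC and HSC therefore name preparations here. In bulk samples, fewer cells of a type and less RNA per cell cannot be told apart.

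Of the 82 members, 79 had enough reads to be tested. Rpl10l, in mouse and human a copy of Rpl10 used in the testis, had 0 reads in all 12 libraries, which allows up to 0.335 CPM. Rpl39l and Rpl3l, copies of Rpl39 and of Rpl3 with the latter used in striated muscle, stayed at or under 0.435 and 0.413 CPM. On the deposited RPKM values, which divide reads by gene length and depth so that levels of different genes can be compared, Rpl10, Rps15 and Rpl41 were the highest members at means over 12 libraries of 603, 602 and 584. Rps15a, at 18.3, and Rps19bp1, at 10.2, were the lowest tested members, and the annotated length of Rps15a, 5134 bases, is the longest among the core members.

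Some overlapping entries held the same reads. Rpl34-ps1 held 0.965 to 0.986 times the count of Rpl34, which it overlaps, and 19 clone entries that overlap Rpl41 held 22.9% to 99.5% of its count. Rpl26, Rpl30 and Rps27 each overlap a further gene entry on the same strand. Another 8 members overlap a gene on the opposite strand, with the use of strand not stated. Values of single members with near-identical copies are uncertain to that degree.

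The members held the smallest share of gene counts in Q-SEC. The share was 1.76%, 1.22% and 1.47% in the Q-SEC libraries and 3.60%, 2.24% and 2.33% in the F-SEC libraries. In the HSC preparations it was 2.44%, 2.18% and 2.16% in Q-HSC and 2.71%, 2.67% and 2.35% in F-HSC. The highest Q-SEC library thus lay below the lowest library of every other group, while the F-SEC, Q-HSC and F-HSC ranges overlapped. As mean ± SD with n = 3, the share was 1.48% ± 0.271 in Q-SEC, 2.72% ± 0.759 in F-SEC, 2.26% ± 0.152 in Q-HSC and 2.58% ± 0.197 in F-HSC. The large subunit genes together held 1.45 ± 0.0164 times the counts of the small subunit genes in Q-SEC, 1.46 ± 0.0223 in F-SEC, 1.49 ± 0.0153 in Q-HSC and 1.54 ± 0.0277 in F-HSC, so the balance between the subunits varied far less than their sum. The F-HSC ratios, 1.51 to 1.57, lay above those of the other 9 libraries, 1.43 to 1.51.

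**Figure D1:**
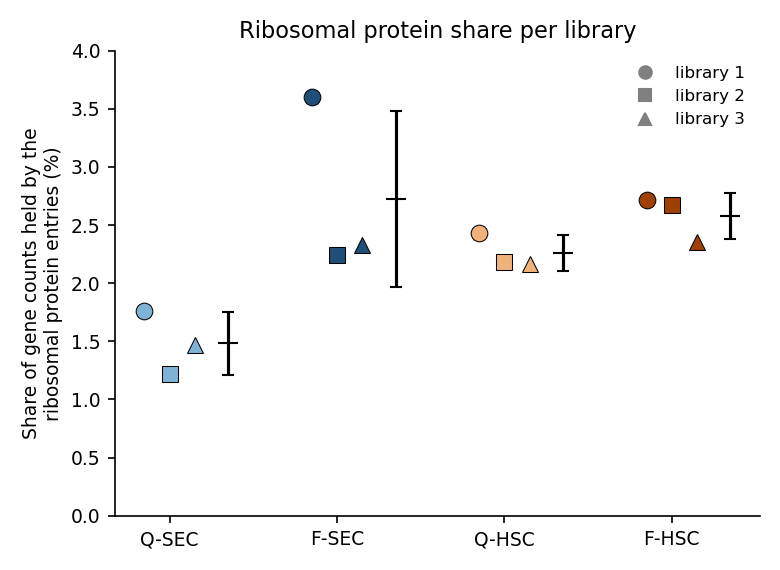
Share of gene counts held by the 82 members (%, vertical axis) in each of the 12 libraries, by group, with the mean and SD of 3 libraries as bars. The Q-SEC libraries lie between 1.22% and 1.76%, below every library of the other groups, and library 1 is the highest of F-SEC at 3.60%.

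Library 1 stood apart in both LSEC groups. Q-SEC.1 was the highest of its group for 72 of the 73 core members, by a median of 1.38-fold over the mean of the others, and F-SEC.1 for 73 of 73, by 1.57-fold. Among the HSC libraries, Q-HSC.1 and F-HSC.1 were each the highest for 46 of 73, by 1.08-fold and 1.07-fold. The core members thus varied together within the LSEC groups, and less clearly so within the HSC groups. Their spread also differed, with a median coefficient of variation of 20.3% in Q-SEC and 27.8% in F-SEC against 6.30% in Q-HSC and 7.26% in F-HSC.

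**Figure D2:**
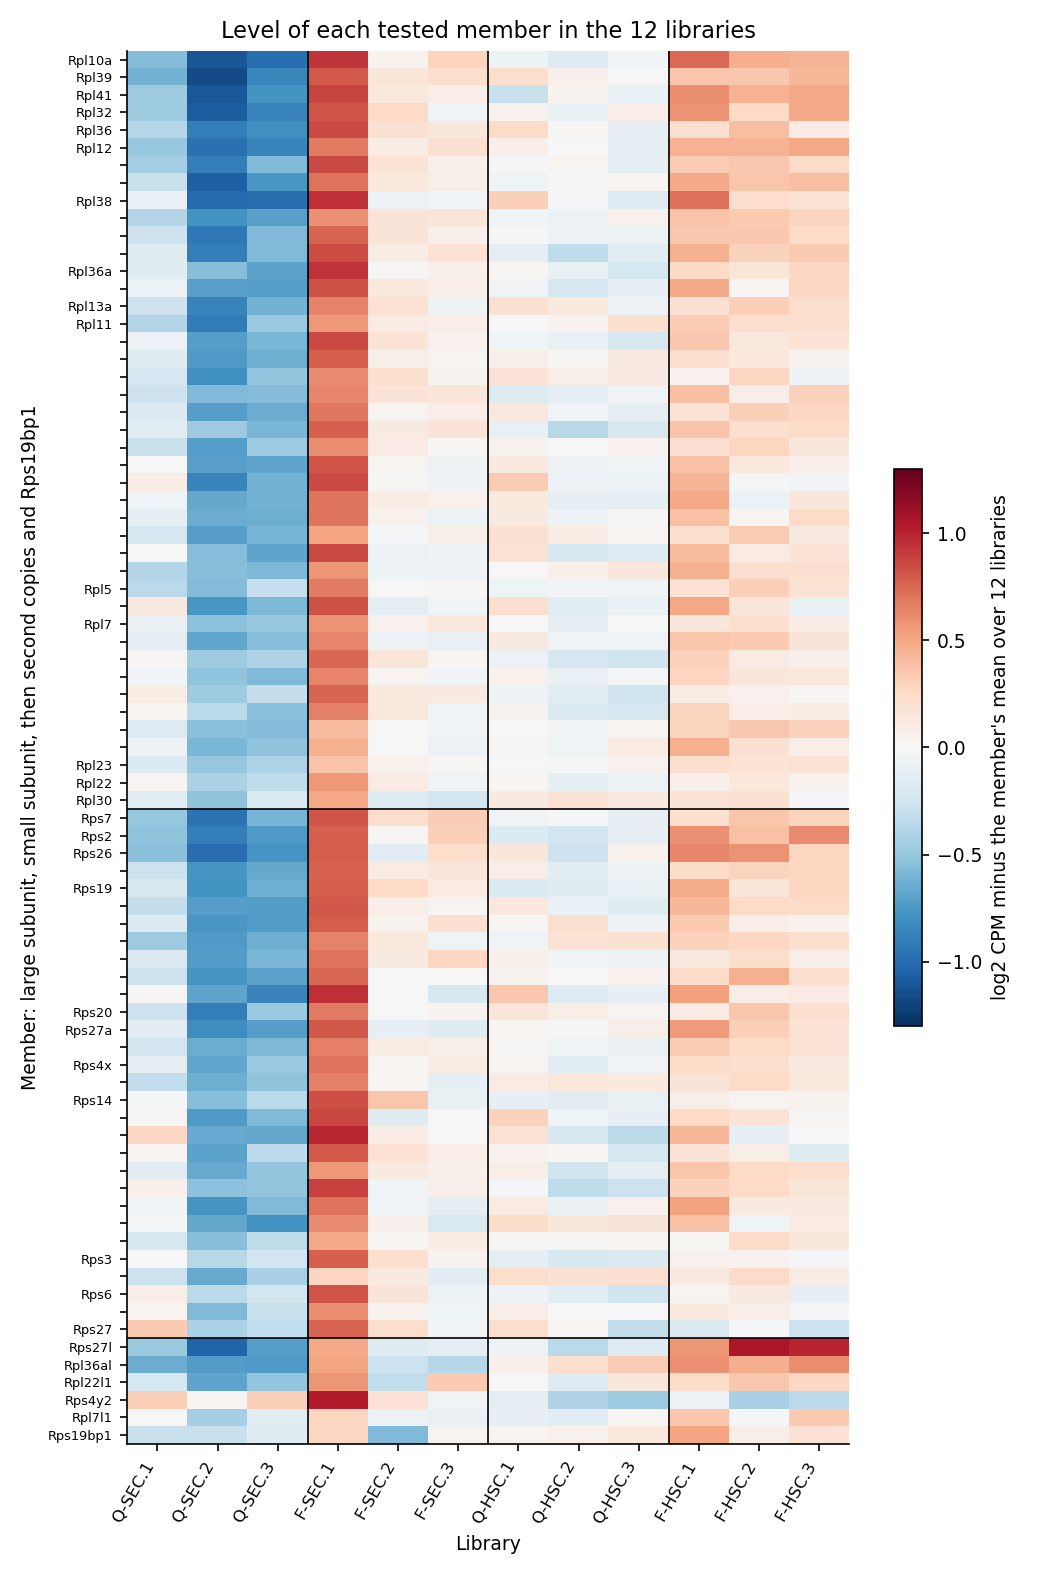
Level of the 79 tested members (rows, by subunit and then by the F-SEC change) in the 12 libraries (columns), as log2 CPM minus the member's mean, with selected members labelled. Core members move together between libraries: F-SEC.1 is the highest F-SEC library for 73 of 73 and Q-SEC.1 the highest Q-SEC library for 72 of 73.

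The first comparison asked how the members differed between the LSEC preparations of fibrotic and control livers. Ribosomal protein messengers were higher in F-SEC: all 79 tested members had a positive change, 52 were called higher and 0 lower, at an adjusted p under 0.05 (edgeR's quasi-likelihood test, Benjamini-Hochberg adjustment over 14489 genes). Across all tested genes, 11.8% were called higher and 12.1% lower. The median change of the members was 0.73 on the log2 scale, or 1.66-fold, against -0.05 for all genes. The calls comprised 30 of 43 large subunit genes, 19 of 30 small subunit genes and 3 of the 5 tested second copies, with subunit medians of 0.77 and 0.72. The 3 F-SEC libraries lay above the 3 Q-SEC libraries for 55 members, or 69.6%, against 19.7% of all genes.

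The largest rise was that of Rpl10a, a protein of the mobile stalk beside the exit site of transfer RNA. Rpl10a measured 173, 118 and 129 CPM in Q-SEC and 485, 263 and 311 CPM in F-SEC. Every F-SEC library was above every Q-SEC library, with a log2 change of 1.33 ± 0.23 (SE) and an adjusted p of 0.0035 by edgeR. Rpl39, a small protein that lines the exit tunnel of the nascent chain, measured 74.5, 51.1 and 63.6 CPM in Q-SEC and 199, 128 and 134 CPM in F-SEC. Its groups did not overlap, and the change was 1.28 ± 0.19 with an adjusted p of 0.0019 by edgeR.

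Rpl41, whose product is a very short basic peptide, measured 223, 144 and 179 CPM in Q-SEC against 565, 339 and 327 CPM in F-SEC. Rpl32 was at 149, 98.1 and 113 CPM against 364, 247 and 198 CPM. Both changes were 1.17 on the log2 scale, with SEs of 0.23 and adjusted p of 0.0064 and 0.0060 by edgeR, and neither gene's groups overlapped. Among small subunit genes, Rps7 measured 215, 156 and 200 CPM in Q-SEC and 535, 355 and 379 CPM in F-SEC. Rps2 measured 413, 321 and 356 CPM against 1015, 599 and 737 CPM. Their changes were 1.15 ± 0.18 and 1.11 ± 0.20 with adjusted p of 0.0025 and 0.0048 by edgeR, and F-SEC.1 was the highest library for each. Rpl36, Rpl12 and Rps26 rose by a like amount, 1.11, 1.10 and 1.10.

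Members with a known role beyond bulk translation were called in part. Rpl5 and Rpl11, which bind Mdm2, changed by 0.66 ± 0.19 and 0.85 ± 0.18 with adjusted p of 0.029 and 0.0085 by edgeR, and Rpl23, a further Mdm2 partner, by 0.50 ± 0.14 with 0.029. Rps19 and Rps14, each lost or mutated in human inherited or acquired anaemias, rose by 0.93 and 0.71, and Rpl13a, a translational silencer in interferon-treated human monocytes, by 0.85. Rps20 rose by 0.80. Without F-SEC.1, Rpl5 was at 0.41 and Rps14 at 0.44, and of these 7 called members Rpl5, Rpl23, Rps14, Rpl13a and Rps20 were not called when F-SEC.1 or either of Q-SEC.2 and Q-SEC.3 was left out. Rps6, the target of the S6 kinases, measured 580, 427 and 462 CPM in Q-SEC and 961, 614 and 520 CPM in F-SEC, and these ranges overlapped. Its change of 0.51 ± 0.23 was not called, at an adjusted p of 0.12 by edgeR. Rps3, which also acts in DNA repair, was at 0.58 ± 0.20 with 0.053, and Rps27a, made as a fusion with ubiquitin, at 0.78 ± 0.27 with 0.055.

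Of the 24 core members not called, Rpl38 came nearest. Rpl38, which is needed for Hox messenger translation in the mouse embryo, measured 117, 61.7 and 63.2 CPM in Q-SEC and 240, 118 and 122 CPM in F-SEC. The ranges were apart only narrowly, and the change was 0.98 ± 0.33 with an adjusted p of 0.052 by edgeR. Library 1 carried the highest value in both groups there. With the library number as a block, the edgeR adjusted p became 0.0026 for Rpl38 and 0.0076 for Rpl35a, and Rps15, Rps25, Rpl8, Rps27a, Rps29, Rps3, Rpl10 and Rpl22 were also called, at 0.010 to 0.043, while the count of called members became 73.

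The count depended on single LSEC libraries. It was 24 without F-SEC.1, 18 without Q-SEC.2, 18 without Q-SEC.3, 70 without Q-SEC.1 and 70 in libraries 2 and 3 of all groups alone, and no member was called lower in any of these. The shares of all genes called in these settings, or with the block, are not given here, so these counts do not separate the members from all genes. Rpl10a, Rpl39, Rpl41, Rpl32, Rps7, Rpl36, Rps2 and Rps26 were each called in 17 of 17 alternative settings, not counting the scaling to the core sum.

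**Figure D3:**
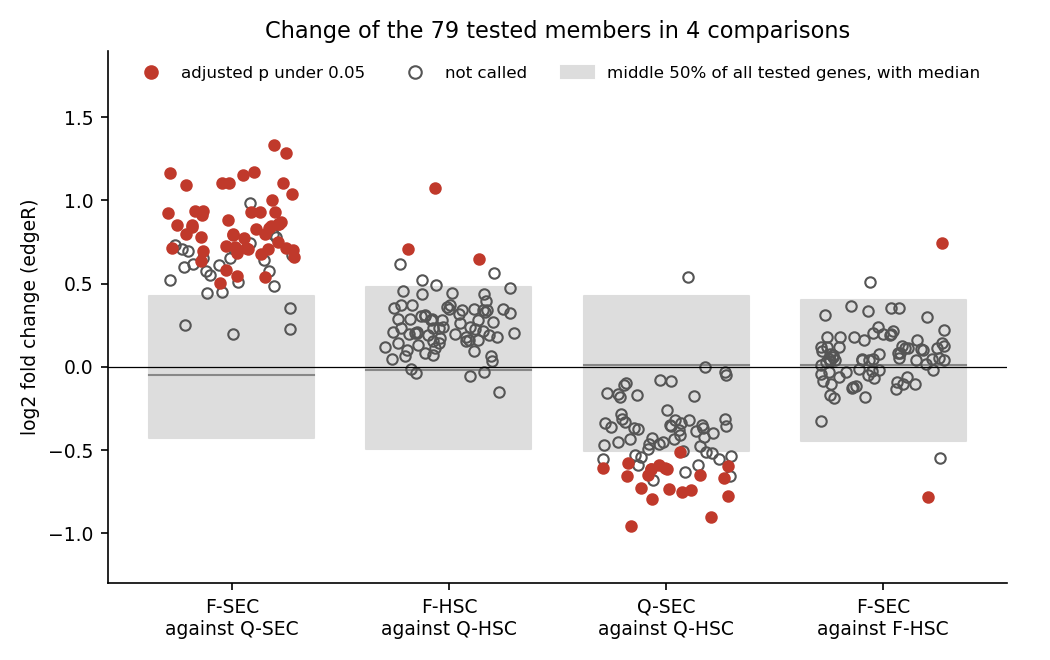
Log2 fold change (edgeR, vertical axis) of the 79 tested members in 4 comparisons, filled where the adjusted p was under 0.05, with the middle 50% and the median of all 14489 genes in grey. All 79 points lie above 0 for F-SEC against Q-SEC, with a median of 0.73, while F-SEC against F-HSC is centred at 0.05.

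Marker lists moved with this comparison. Between Q-SEC and F-SEC the summed endothelial markers went from 25290 to 29536 CPM to 8930 to 12605 CPM, the stellate markers from 134 to 1926 CPM to 3327 to 6657 CPM, the macrophage markers from 276 to 956 CPM to 1615 to 3617 CPM and the markers of dividing cells from 68.2 to 87.7 CPM to 87.3 to 451 CPM. Their part in the rise of the members was not tested.

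The second comparison set the HSC preparations of fibrotic livers against those of control livers. Of the 79, 74 had a positive change, 3 were called higher and 0 lower, against 14.7% higher and 17.6% lower among all genes, and the median was 0.24 against -0.02 for all genes. The 0 lower calls stood beside 5 members with a negative change. By library, F-HSC lay wholly above Q-HSC for 48 members, or 60.8%, against 20.7% of all genes, so most members whose groups separated were not called.

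Rps27l, a copy of Rps27 that p53 induces, rose most. It measured 41.2, 33.8 and 38.5 CPM in Q-HSC and 64.2, 89.3 and 85.9 CPM in F-HSC. The groups did not overlap, and the change was 1.08 ± 0.21 with an adjusted p of 0.0046 by edgeR. Its parent Rps27 measured 191, 166 and 131 CPM in Q-HSC and 143, 162 and 134 CPM in F-HSC, with overlapping ranges and a change of -0.15 ± 0.25 (adjusted p = 0.67 by edgeR). Within F-HSC, Rps27l was lowest in library 1, the library in which 46 of 73 core members were highest.

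Rps2, a small subunit protein at the entry of the messenger, measured 526, 500.2 and 552 CPM in Q-HSC and 898, 772 and 910.1 CPM in F-HSC, a change of 0.71 ± 0.20 with an adjusted p of 0.023 by edgeR. Rpl10a measured 244, 227 and 248 CPM against 426, 355 and 347 CPM, a change of 0.65 ± 0.23 with 0.049. For both genes every F-HSC library was above every Q-HSC library. Rps27l was called in 17 of 17 alternative settings, Rps2 in 14 and Rpl10a in 8. The count of called members was 1 without Q-HSC.2 or F-HSC.3 and 2 without any other single library of these groups. With the shares of all genes in these settings not given here, these counts do not separate the members from all genes. Summed hepatocyte markers were 9411 to 20684 CPM in F-HSC and 1656 to 4722 CPM in Q-HSC, with 3 of 6 called higher. Endothelial markers were called lower for 9 of 10, at 2317 to 4605 CPM against 8609 to 11454 CPM, and macrophage markers for 2 of 10. Stellate markers were called higher for 2 of 10. The part of these lists in the changes was not tested.

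Whether CCl4 changed the members by different amounts in the LSEC and HSC preparations was tested as the difference of the changes. No member was called by edgeR (0 of 79, against 0.566% of all genes called higher and 0.235% lower), while 20 members had an unadjusted p under 0.05, as had 2558 of 14489 genes. DESeq2 called 4 members, all higher, against 3.94% of all genes higher and 2.35% lower, and limma-voom called 0. For 76 of the 79 the LSEC change was the larger, with a median difference of 0.50 against 0.02 for all genes, which became 0.24 without F-SEC.1. Rpl39 came nearest, at 1.002 ± 0.27 with an adjusted p of 0.099 by edgeR, and Rpl36 was at 0.93 ± 0.30 with 0.15. For Rps27l, called higher in both preparations, the HSC change was the larger, at -0.24 ± 0.30 with 0.72. The larger number of calls in the LSEC preparation is therefore not shown to be a difference between the preparations, and a missed threshold does not show that the changes were equal.

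Between the preparations from control livers, the members were lower in Q-SEC than in Q-HSC. Of the 79, 78 had a negative change, 21 were called lower and 0 higher, against 14.3% lower and 15.5% higher among all genes, and the median was -0.45, against 0.01 for all genes. The only member with a positive change, Rps4y2, was not called, at 0.54 ± 0.25 and an adjusted p of 0.13 by edgeR, although its groups did not overlap. The calls comprised 14 large subunit genes, 6 small subunit genes and Rpl36al. The Q-SEC libraries lay wholly below the Q-HSC libraries for 47 members, or 59.5%, against 22.4% of all genes.

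Rpl39 again led: its 3 Q-SEC values of 51.1 to 74.5 CPM lay below 134, 120 and 114 CPM in Q-HSC, and the change was -0.96 ± 0.19 with an adjusted p of 0.0036 by edgeR. Rpl36al, a copy of Rpl36a, measured 50.4, 47.4 and 47.1 CPM in Q-SEC and 81.97, 90.5 and 98.2 CPM in Q-HSC. The Q-SEC values were close together, in contrast to the core members, and the change was -0.90 ± 0.21 with 0.0074. Rpl32, Rpl10a, Rpl12 and Rps26 fell by 0.80, 0.77, 0.75 and 0.74. Rps6 and Rps3, at -0.00 ± 0.23 and -0.03 ± 0.20, were not called, and their ranges overlapped. Leaving out Q-SEC.2, Q-SEC.3, Q-HSC.1, Q-HSC.2 or Q-HSC.3 reduced the calls to 4, 5, 8, 7 and 6, and libraries 2 and 3 alone gave 63, with the shares of all genes in these settings not given here. Macrophage markers, at 276 to 956 CPM in Q-SEC and 7862 to 22148 CPM in Q-HSC, moved with this comparison, and so did markers of dividing cells, at 68.2 to 87.7 and 328 to 507 CPM. Their part was not tested.

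Between the preparations from fibrotic livers, no core member was called by edgeR, 0 of 73 had an unadjusted p under 0.05, and their changes lay between -0.18 and 0.51. Of the 79 members, 1 was higher and 1 lower, against 12.6% and 12.8% of all genes, and the median was 0.05, against 0.01. Without F-SEC.1 the median was -0.19 and without F-SEC.3 it was 0.20, so the position of the LSEC members relative to the HSC members turned on single libraries. Rps27l was lower in F-SEC, where it measured 60.6, 38.6 and 39.9 CPM against 64.2, 89.3 and 85.9 CPM in F-HSC, a change of -0.78 ± 0.21 with an adjusted p of 0.021 by edgeR. Rps4y2, an autosomal copy of Rps4x on chromosome 6 that overlaps Tmtc1 on the opposite strand, measured 49.8, 27.7 and 23.7 CPM in F-SEC and 23.0, 18.1 and 19.2 CPM in F-HSC, a change of 0.75 ± 0.25 with 0.049. Without F-SEC.1 that change was 0.36, with an adjusted p of 0.17 by edgeR. Without strand, reads of Tmtc1 and Rps4y2 cannot be told apart, and reads matching both Rps4x and Rps4y2 could be split between them. The count of called members was 0 without F-SEC.2, F-HSC.2 or F-HSC.3 and 1 without F-SEC.3 or F-HSC.1. The shares of all genes in these settings are not given here, so these counts do not separate the members from all genes. Hepatocyte markers were called lower in F-SEC for 6 of 6, at 1645 to 2629 CPM against 9411 to 20684 CPM, macrophage markers for 6 of 10, at 1615 to 3617 CPM against 5394 to 12830 CPM, and endothelial markers higher for 10 of 10. Their part in these differences was not tested.

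**Figure D4:**
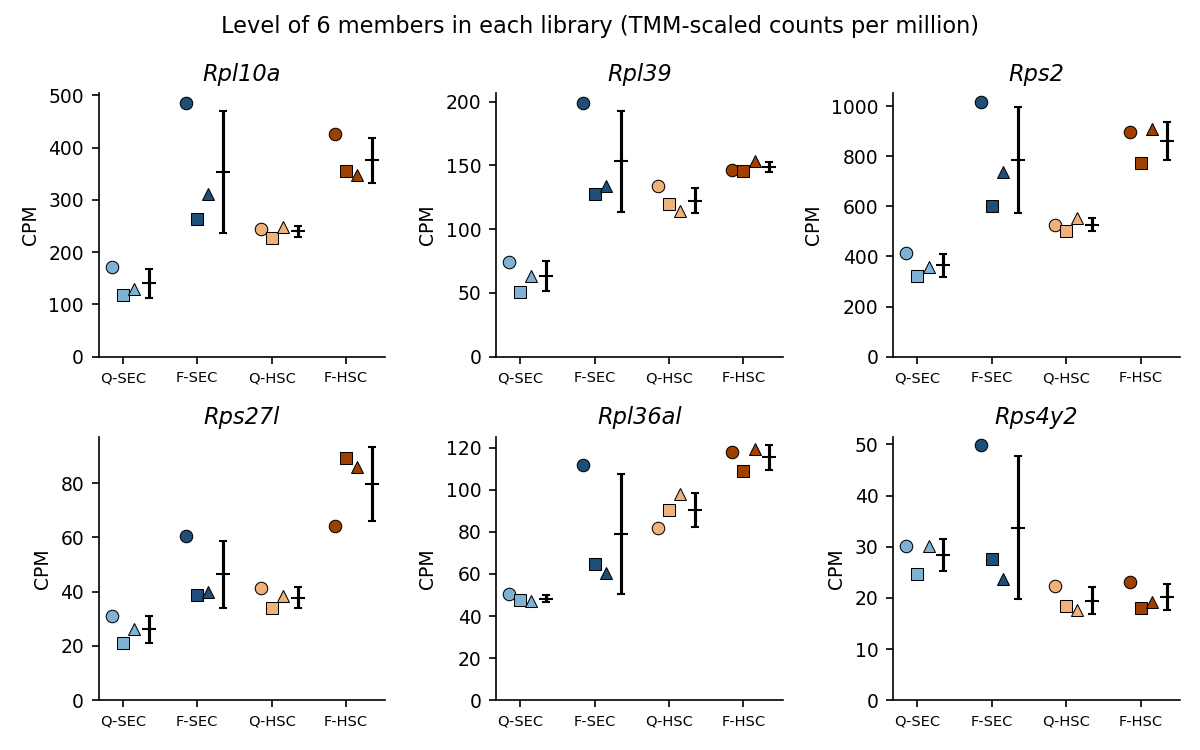
Level (CPM, linear axis from 0) of Rpl10a, Rpl39, Rps2, Rps27l, Rpl36al and Rps4y2 in each library, with library 1 as circles, 2 as squares and 3 as triangles and the mean and SD of 3 libraries as bars. Rps27l is highest in F-HSC, at 64.2 to 89.3 CPM, while Rpl39 is lowest in Q-SEC, at 51.1 to 74.5 CPM.

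Because the core members moved together, each member was also tested against their sum, by setting the library size to the summed core count, an alternative chosen after seeing the data. This scaling centres the core members near 0 by construction. In F-SEC against Q-SEC, 71 of 73 core members then lay within 0.5 log2 units of 0, which describes only their spread about a common change. For all genes this scaling called 57.7% in F-SEC against Q-SEC, 24.7% in F-HSC against Q-HSC, 0% for the difference of the changes, 38% in Q-SEC against Q-HSC and 15% in F-SEC against F-HSC. Of the members, 6, 1, 0, 2 and 3 were called in these comparisons.

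The departures were few, and Rps27l, Rpl36al, Rps4y2 and Rpl7l1, all second copies, were among them. Rps27l made up 0.162%, 0.156% and 0.180% of the core counts in Q-SEC and 0.173%, 0.170% and 0.180% in F-SEC, with groups that overlapped. In Q-HSC it made up 0.187%, 0.164% and 0.185% and in F-HSC 0.241%, 0.356% and 0.352%, a relative change of 0.82 ± 0.18 with an adjusted p of 0.010 by edgeR. Rpl39 was at 0.389%, 0.381% and 0.435% in Q-SEC, and at 0.548% or more in each of the other 9 libraries. Its relative changes were 0.52 ± 0.15 in F-SEC against Q-SEC and -0.53 ± 0.15 in Q-SEC against Q-HSC, with adjusted p of 0.013 and 0.018 by edgeR. Rpl10a was at 0.882% to 0.901% in Q-SEC and 1.15% to 1.41% in F-SEC, a relative change of 0.56 ± 0.15 with 0.010.

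Rps4y2 was the only member called higher in Q-SEC than in Q-HSC relative to the core sum, at 0.158%, 0.184% and 0.206% against 0.0843% to 0.102% in Q-HSC, a relative change of 0.99 ± 0.18 with an adjusted p of 0.0020 by edgeR. It was lower in F-SEC than in Q-SEC by this measure, at -0.56 ± 0.18 with 0.020, and higher in F-SEC than in F-HSC, at 0.64 ± 0.18 with 0.033. Rpl7l1 and Rpl30 fell behind the other members in F-SEC against Q-SEC, at -0.52 ± 0.17 and -0.43 ± 0.16, and Rpl32 was ahead at 0.40 ± 0.16, with adjusted p of 0.024, 0.034 and 0.046 by edgeR. Rpl36al was lower in F-SEC than in F-HSC, at -0.64 ± 0.17 with 0.030.

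The remaining second copies were compared with their parents. Rpl22l1, which in mouse cells without Rpl22 takes its place, measured 17.5, 12.8 and 14.5 CPM in Q-SEC and 30.6, 16.5 and 26.1 CPM in F-SEC, and rose by 0.71 ± 0.22 with an adjusted p of 0.036 by edgeR. Its ranges overlapped. Rpl22 itself was at 0.45 ± 0.18 with 0.084. Rpl7l1 measured 54.4 ± 8.10 CPM in Q-SEC and 63.6 ± 9.50 CPM in F-SEC (SD, n = 3), at 0.23 ± 0.16 with 0.33, while its parent Rpl7 rose by 0.64 ± 0.18 with 0.029. Rpl36al and its parent Rpl36a rose by 0.71 and 0.86, and Rps4x, the parent of Rps4y2, by 0.72. Without F-SEC.1 these values were 0.38, 0.49 and 0.48, and none of the 3 was called then or when Q-SEC.2 or Q-SEC.3 was left out. Rpl22l1 and Rpl7 also lost their calls when any of these libraries was left out. Rps19bp1 stayed between 7.07 and 15.0 CPM in all 12 libraries, with a change of 0.20 ± 0.22 in F-SEC against Q-SEC and an adjusted p of 0.54 by edgeR.

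Sequence and structure of the genes separated the changes little. In F-SEC against Q-SEC the median change was 0.78 in the 23 core members with a pyrimidine run of at least 8 in the window around the start and 0.71 in the 31 with a shorter run. It was 0.75 in the 20 with a small nucleolar RNA and 0.75 in the 53 without. The 36 shorter core members were at 0.80 and the 37 longer at 0.72. These medians are descriptions of genes that vary together.

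Other genes of protein synthesis were followed as lists, to be read against the 11.8% of all genes called higher and 12.1% lower in F-SEC and the 14.7% and 17.6% in F-HSC. The 7 ribosomal proteins that the symbol rule does not reach were all called higher in F-SEC against Q-SEC, with a median of 0.93, and 1 of 7 in F-HSC against Q-HSC. Rpsa, a small subunit protein also known as a laminin receptor, measured 431, 284 and 277 CPM in Q-SEC and 1112, 570.1 and 597 CPM in F-SEC, a change of 1.20 ± 0.27 with an adjusted p of 0.011 by edgeR. Rplp0, of the stalk that recruits elongation factors, rose by 1.03 in F-SEC and by 0.58 in F-HSC. The elongation list holds Eef2k, a kinase that acts on the factor Eef2, and Eef1e1 beside the elongation factors. Its genes were called higher for 5 of 10 in F-SEC and 4 of 10 in F-HSC and lower for 0, with medians of 0.58 and 0.52. Eef2k was among the F-HSC calls, at 0.61 with an adjusted p of 0.018 by edgeR. Eif5a, which helps ribosomes past proline-rich stretches, was called in both, at 0.78 ± 0.16 and 0.71 ± 0.16 with adjusted p of 0.0071 and 0.0079 by edgeR.

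Of 36 initiation factors, 4 were called higher and 0 lower in F-SEC, a share of higher calls near that of all genes, and 9 higher and 3 lower in F-HSC. Pabpc1, the poly(A)-binding protein and itself encoded by a messenger with a terminal oligopyrimidine motif, measured 311, 280.3 and 320.4 CPM in Q-SEC and 638, 555 and 597 CPM in F-SEC, a change of 0.97 ± 0.15 with an adjusted p of 0.0025 by edgeR. Its 3 F-SEC libraries were close together, unlike those of the members. Ribosome biogenesis genes were called higher for 4 and lower for 1 of 41 in F-SEC, and for 2 and 1 in F-HSC, with medians of 0.13 and 0.06, so the higher calls were below the share of all genes. Proteins of the mitochondrial ribosome were called higher for 9 and lower for 1 of 76 in F-SEC and for 13 and 1 in F-HSC, with medians of 0.30 and 0.36, and the shares called higher were near those of all genes. By library, however, F-HSC lay wholly above Q-HSC for 46 of the 76, or 60.5%, against 20.7% of all genes, a share like that of the members. For F-SEC over Q-SEC it was 27.6%, against 19.7% of all genes. Of 16 other messengers with a terminal oligopyrimidine motif, some of them also in the lists above, 8 were called higher in F-SEC and 1 in F-HSC, and none lower in either. None of the 3 tested ribosomal protein pseudogenes was called in either comparison by edgeR, with medians of 0.65 and 0.10.

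Of 18 genes of growth control, 2 were called higher and 2 lower in F-SEC, and 4 and 2 in F-HSC, which in F-SEC is about the share of all genes in each direction. Their medians were -0.17 in F-SEC, with 8 positive and 10 negative changes, and 0.06 in F-HSC. Myc, a transcription factor that drives ribosome production, measured 22.9, 21.8 and 19.4 CPM in Q-SEC and 100.8, 83.1 and 96.8 CPM in F-SEC, with groups far apart and a change of 2.13 ± 0.22 (adjusted p = 0.00030 by edgeR). In Q-HSC it measured 37.6, 32.9 and 43.3 CPM and in F-HSC 43.4, 78.9 and 74.8 CPM, a change of 0.79 ± 0.21 with 0.016. Myc was lowest in library 1 of F-HSC. Tsc1, an inhibitor of mTOR signalling, fell by 0.80 in F-SEC, with an adjusted p of 0.0057 by edgeR. In F-HSC, the cell cycle inhibitor Cdkn1a was called higher at 1.24 and the S6 kinase Rps6kb2 lower at -0.65, with adjusted p of 0.0058 and 0.012 by edgeR.

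Between preparations, the same lists were set against 14.3% of all genes lower and 15.5% higher in Q-SEC and 12.8% lower and 12.6% higher in F-SEC. In Q-SEC against Q-HSC, 1 of 7 other ribosomal proteins, 2 of 10 genes of the elongation list (Eif5a and Eef1e1), 4 of 36 initiation factors, 8 of 41 biogenesis genes and 6 of 76 mitochondrial ribosome genes were called lower, and 1 biogenesis gene was called higher, while of 18 growth control genes 3 were higher and 2 lower. Of these lower counts, those for the elongation list and biogenesis genes were above the share of all genes, and the others were at or below it. The count for the elongation list rests on 2 genes, and neither excess was tested. All 7 other ribosomal proteins had a negative change, with a median of -0.59. Their Q-SEC libraries lay wholly below the Q-HSC libraries for 7 of 7, against 22.4% of all genes. In F-SEC against F-HSC, where no core member was called, 7 of 41 biogenesis genes and 10 of 76 mitochondrial ribosome genes were called lower in F-SEC and 0 higher in each list, the latter near the share of all genes.

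**Figure D5:**
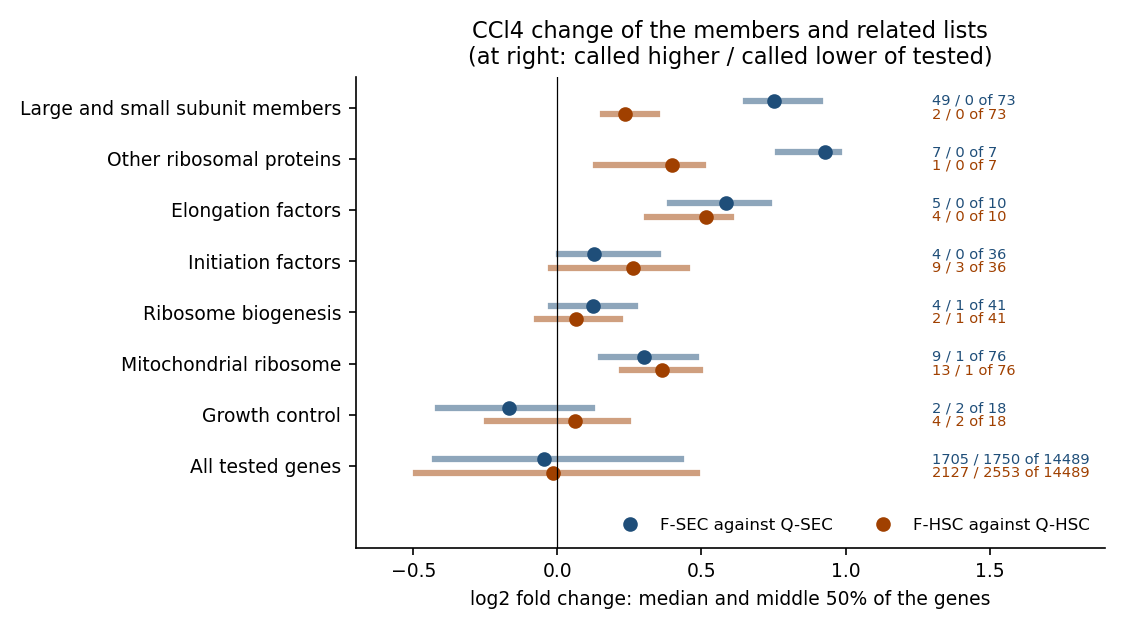
Median (point) and middle 50% (bar) of the log2 fold change under CCl4 for the core members, related lists and all tested genes, in the LSEC preparation (blue) and in the HSC preparation (brown), with the counts called higher and lower at right. The core members lie at 0.75 in the LSEC preparation and 0.23 in the HSC preparation, and all genes at -0.05 and -0.02.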

How the data were processed

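The counts are the authors' deposited reads per entry. Per the labels, reads were made with bcl2fastq (version not given) and aligned to mm10 with TopHat2 2.0.13. The counting tool and strand use are not given in the sources used here. The deposited RPKM values are the authors' and served only for levels between genes. They could be recomputed from count, length and depth. Of 56825 lines, 33353 cDNA clone entries were left out.

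Counts were fitted with edgeR 4.0.16 (limma 3.58.1, R 4.3.3) on all 12 libraries by group, with filterByExpr, TMM scaling and robust quasi-likelihood, and p-values were adjusted over 14489 genes. CPM are TMM-scaled. DESeq2 1.42.0, limma-voom, other scalings, filters and thresholds, library omissions and a block on library number were alternatives. The method was tested on simulated data, where most 2-fold changes were missed. It recovered 38% of them for F-SEC against Q-SEC and 23% for F-HSC against Q-HSC. For Q-SEC against Q-HSC it recovered 30% and for F-SEC against F-HSC 24%. Of 4-fold changes it recovered 84% to 92%. Libraries with no number in their title were read as number 1. Same-numbered libraries deviated together for F-SEC and Q-SEC (r = 0.31, 0.27 and 0.17) and for F-SEC and F-HSC (0.43, 0.44 and 0.44). F-SEC.3 was also correlated with Q-SEC.2, at 0.14, so the pairing of number 3 in the LSEC groups is unclear. Members and lists were chosen with earlier results of these data known. Named were second copies and their parents, up to 6 of the largest called changes in each direction per comparison, members with known roles, the highest and lowest by RPKM, and up to 3 genes per list by adjusted p, of which the text gives a selection. Rpl30, Rps15a and the members shown for a long pyrimidine run were chosen after their values were seen. Some items are not reported here by name.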

Additional observations from a re-analysis of the deposited data

How the results depend on the processing

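No call of a member turned direction in the alternatives that scale to all genes. Most counts of calls below stand without the share of all genes called in the same setting. They do not show whether the members or all genes moved. The median of F-SEC against F-HSC, 0.05, became -0.19 without F-SEC.1 and -0.18 in libraries 2 and 3 alone. Scaled to the core sum, the member median of F-SEC against Q-SEC is -0.03 by construction, and Rps4y2, not called at 0.25, was called lower at -0.56. Called members in F-SEC against Q-SEC, 52, became 18 at an adjusted p under 0.01, 28 with only the groups compared and 18 to 70 with a library left out. The 3 calls in F-HSC against Q-HSC became 5 with a filter at 10 CPM, 7 by DESeq2, 7 with only the groups compared, 17 in libraries 2 and 3 alone (where 22.3% of all genes were called higher), 1 at an adjusted p under 0.01 and 1 to 2 with a library left out. The difference of the changes had 4 calls by DESeq2 and 4 in libraries 2 and 3 alone. The 21 calls in Q-SEC against Q-HSC became 39 with gene count totals alone, 33 with a filter at 10 CPM, 36 by DESeq2, 63 in libraries 2 and 3 alone, 3 at an adjusted p under 0.01 and 4 to 29 with a library left out. The 2 calls in F-SEC against F-HSC became 1 with gene count totals, 1 with scaling without Rn45s and Lars2, 1 without a filter, 0 at an adjusted p under 0.01, 0 with only the groups compared and 0 to 2 with a library left out.

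With the replicate number as a block, the calls were 73 for CCl4 in the LSEC preparation, 10 for CCl4 in the HSC preparation, 0 for the difference, 42 between the control preparations (41 lower and Rps4y2 higher, at 0.55 with an edgeR adjusted p of 0.048) and 2 between the fibrotic ones. Numbers did not pair all libraries of F-HSC with Q-HSC (r = -0.12, 0.25 and -0.31) or of Q-SEC with Q-HSC (0.55, 0.53 and -0.00). For number 3 of F-SEC and Q-SEC the pairing was unclear, at 0.17. Scaling to the summed core members gave 6, 1, 0, 2 and 3 calls in the same order. With gene count totals the median of all genes in Q-SEC against Q-HSC moved from 0.01 to -0.17 and that of the members from -0.45 to -0.64. As a share of RPKM the members held 5.51% in Q-SEC, 9.08% in F-SEC, 7.60% in Q-HSC and 8.12% in F-HSC, and without Rn45s and Lars2 in the total 2.46% in Q-HSC and 2.81% in F-HSC. The cause of these shifts was not tested. With 3 libraries a group and 8 residual degrees of freedom, a missed threshold does not show that levels were equal.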
